A study of Mus musculus with 6 samples.

Results

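Entry into mitosis, chromosome condensation, attachment of chromosomes to the spindle and division of the cell are carried out by a set of genes that are transcribed late in the cell cycle. The 56 genes described here were chosen by name, with earlier results of these data known. They comprise regulators of the G2 to M transition, spindle checkpoint and anaphase genes, the chromosomal passenger complex, kinetochore subunits, kinesins and other spindle proteins, cytokinesis genes, and condensin I with other chromosome proteins. All 56 were among the 16171 gene symbols counted, and all 56 were among the 11480 genes abundant enough to be tested.

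The RNA came from RAW264.7 cells, an established mouse macrophage line that divides in culture, labelled as wild type. THCaP is titanium with a nanowire coating of calcium phosphate (3 libraries), and TH is titanium with titanate nanowires made by alkaline heat treatment (3 libraries), the surface it was set against. Cells on THCaP and on TH alike were left on the surface for 12 h, were given 1 µg/mL lipopolysaccharide (LPS, the bacterial endotoxin, a strong macrophage stimulus) over 2 h, and were kept for a further 1 d before collection, so no library is from unstimulated cells. Total RNA was sequenced, and reads were counted per gene.

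During the G2 phase, cyclin-dependent kinase 1 binds cyclin B, and its activation drives the cell into mitosis. Kinetochores then assemble on centromeres and bind spindle microtubules, the spindle checkpoint holds back the anaphase-promoting complex until all are attached, and cleavage of cohesin lets the sister chromatids part. Many of the genes involved are kept silent by the DREAM complex in resting cells and early in the cell cycle. They are later switched on by MuvB together with B-Myb and FoxM1. Their promoters often hold a CHR (cell cycle genes homology region), the element through which MuvB binds, and CCAAT boxes, which NF-Y binds. RAW264.7 is a transformed line, and LPS is known to slow the division of macrophages.

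Promoters of 5 of the genes are printed because they hold these elements, and because they include large differences between the surfaces and, with Cenpa, the smallest of all 56. Each runs 5′ to 3′ on the gene's own strand, from 250 bases before to 50 bases after the start that RefSeq annotates on GRCm38.p6. Capitals mark CHR elements, spelled TTTGAA in the usual form with TTCGAA as a variant, CCAAT boxes (CCAAT) and E2F elements (TTTGGCGC, TTTGCCGC, TTTCGCGC or TTTCCCGC). A match on the opposite strand appears as its reverse complement, so a CCAAT box can read ATTGG and a CHR can read TTCAAA. The windows are chr10:69352863-69353162 (minus strand) for Cdk1, chr2:164769679-164769978 (plus strand) for Ube2c, chr11:99024140-99024439 (minus strand) for Top2a, chr19:37376132-37376431 (plus strand) for Kif11 and chr5:30666636-30666935 (plus strand) for Cenpa.
Cdk1: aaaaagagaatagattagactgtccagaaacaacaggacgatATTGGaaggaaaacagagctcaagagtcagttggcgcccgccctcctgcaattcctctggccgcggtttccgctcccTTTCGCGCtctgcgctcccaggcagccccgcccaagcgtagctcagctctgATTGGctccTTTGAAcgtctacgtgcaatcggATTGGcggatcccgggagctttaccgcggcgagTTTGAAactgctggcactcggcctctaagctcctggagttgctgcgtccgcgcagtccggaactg
Ube2c: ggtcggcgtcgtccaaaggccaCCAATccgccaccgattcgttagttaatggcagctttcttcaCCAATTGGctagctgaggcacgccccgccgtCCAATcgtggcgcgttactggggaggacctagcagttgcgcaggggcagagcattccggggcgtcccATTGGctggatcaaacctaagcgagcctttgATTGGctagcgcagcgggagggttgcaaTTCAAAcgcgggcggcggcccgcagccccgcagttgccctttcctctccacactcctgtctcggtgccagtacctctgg
Top2a: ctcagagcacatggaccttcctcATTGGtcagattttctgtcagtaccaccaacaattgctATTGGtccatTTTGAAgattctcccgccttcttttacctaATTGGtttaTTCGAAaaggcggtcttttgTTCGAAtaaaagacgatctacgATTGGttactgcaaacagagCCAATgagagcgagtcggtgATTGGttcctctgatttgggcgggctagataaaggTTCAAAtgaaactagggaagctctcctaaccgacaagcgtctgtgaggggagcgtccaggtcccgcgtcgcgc
Kif11: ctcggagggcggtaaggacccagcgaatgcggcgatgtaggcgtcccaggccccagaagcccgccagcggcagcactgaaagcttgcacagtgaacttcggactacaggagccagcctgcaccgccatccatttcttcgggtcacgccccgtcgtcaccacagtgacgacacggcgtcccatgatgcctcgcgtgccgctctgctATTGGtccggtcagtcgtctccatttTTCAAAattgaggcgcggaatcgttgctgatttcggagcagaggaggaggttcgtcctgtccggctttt
Cenpa: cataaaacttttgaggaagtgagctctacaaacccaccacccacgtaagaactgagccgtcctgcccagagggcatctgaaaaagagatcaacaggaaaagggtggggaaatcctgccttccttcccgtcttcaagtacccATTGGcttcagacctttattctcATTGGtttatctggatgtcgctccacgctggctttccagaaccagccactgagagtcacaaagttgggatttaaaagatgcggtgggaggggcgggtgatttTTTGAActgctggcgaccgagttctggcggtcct

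The mitotic genes shared promoter elements that their choice by name did not use. Promoters on chromosome 18 were left out of the search, also for the other sets of genes compared here. A RefSeq promoter was used for 47 of the 56. A CHR was present in 36 of these 47 (76.6%), against 1550 of 9230 (16.8%) of all tested genes with a promoter and 5854 of 27025 (21.7%) of all genes with a promoter. A CCAAT box was present in 35 of 47 (74.5%), against 43.6% of tested genes and 41.1% of all genes with a promoter. The 2 elements stood together in 31 of 47 (66.0%), against 7.23% of tested genes and 8.61% of all genes with a promoter. E2F elements were present in 4 of 47 (8.51%), against 4.83% of tested genes and 2.61% of all genes with a promoter. Of the S phase list, 43 genes of DNA replication and nucleotide supply, 31 had a promoter, and there the pattern differed: 6 (19.4%) held a CHR, 22 (71.0%) a CCAAT box and 12 (38.7%) an E2F element. Median GC content was 59.0% in promoters of the mitotic genes and 60.7% in those of all tested genes. A gene counts here if any of its annotated starts has a match, and with the first listed start alone the CHR share was 76.6% of the mitotic genes and 14.2% of all tested genes. These are matches of letters and not measured binding.

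The elements also sat at particular distances from the start, taken here as the first listed start of each gene. In the mitotic genes, 34 of 49 CHR matches (69.4%) began between 30 bases before and 50 bases after the annotated start, against 19.0% of 1440 matches in all tested genes. The median CHR began at position -9 relative to the start in the mitotic genes and at position -138.5 in all tested genes. CCAAT boxes lay further upstream: 48 of 74 matches (64.9%) began 100 to 1 bases before the start, against 50.1% of 5868 in all tested genes. In the printed promoters, the CHR nearest the start began 15 bases before it in Cdk1, 29 in Ube2c, 23 in Top2a and 19 in Kif11. In Cenpa the CHR began downstream, at position 17 with the start counted as position 1.

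**Figure D1:**
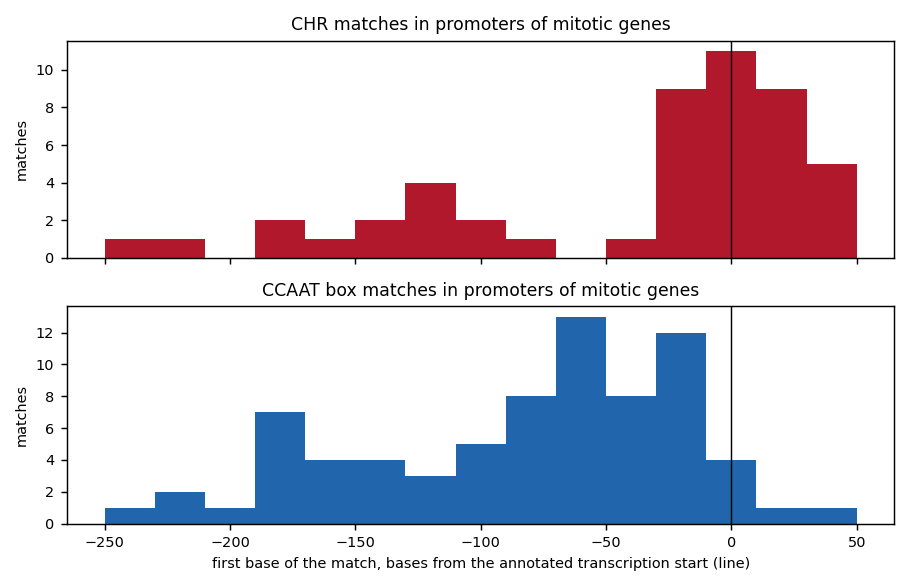
Position of CHR matches (upper panel) and CCAAT box matches (lower panel) in the promoters of the 47 mitotic genes whose RefSeq promoter was used, as the number of matches in bins along the distance in bases from the annotated transcription start. CHR matches gather at the start, with 34 of 49 between 30 bases before and 50 bases after it, while 48 of 74 CCAAT boxes lie in the 100 bases upstream.

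Libraries held 28000099, 29453473 and 28771147 counts on THCaP and 30317108, 28198285 and 28647240 counts on TH, which puts 3 counts, as much as a gene listed at 0 could still have, at 0.107 CPM (counts scaled to the library's size) or less, for counting error only. The CPM of genes given here are scaled by TMM, edgeR's trimmed mean method. All 8 macrophage markers were tested, with a summed level of 2563 to 2782 CPM in the THCaP libraries and 2373 to 2707 CPM in the TH libraries, though Mertk among them was near 0 at 0.342 CPM on THCaP and 0.385 CPM on TH. Lyz2 was called higher, at 174 ± 40.1 CPM on THCaP and 112 ± 14.2 CPM on TH (log2 0.63, adjusted p = 0.0223), though not without THCaP replicate 1, TH replicate 2 or TH replicate 3 (adjusted p up to 0.0904), and the other 7 did not pass. Endothelial markers summed to 2.27 to 4.06 CPM on THCaP and 4.55 to 5.65 CPM on TH, nearly all from Pecam1, with Cdh5, Kdr and Tek each at or below 0.105 CPM in every library. Pecam1 averaged 3.06 CPM on THCaP and 4.85 CPM on TH and did not pass (log2 -0.66, edgeR adjusted p = 0.0613). Its part in the results was not tested. T cell markers, of which 2 of 4 were in the table, summed to at most 0.0334 CPM on THCaP and 0.0669 CPM on TH, and B cell, neutrophil, fibroblast and epithelial markers summed to at most 0.736 CPM in any library. Nothing in the labels says whether the libraries of a surface came from separate cultures, so p-values here speak of the spread among these 6 libraries and of nothing wider.

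TH replicate 1 carried a trend with gene length. Over all tested genes, its median log2 ratio to the mean of the other TH libraries was 0.15 in the shortest of 5 equal bins of length and -0.17 in the longest. Over the 56 mitotic genes its median was -0.23, against 0.0095 over all tested genes. The 56 had a median length of 3161.5 bases, against 3452 bases over all tested genes. In the bin of 2908 to 4141 bases, the median ratio of all tested genes was 0.012. The log2 ratio fell with gene length among the 56 (Spearman correlation -0.42) and among all tested genes (-0.46). Whether the low level of the 56 in TH replicate 1 belongs to the length trend was not tested.

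Mitotic genes were more abundant in cells on THCaP than in cells on TH. In the test across all genes, 43 of the 56 rose on THCaP, 0 fell and 13 did not pass, and the log2 fold change (THCaP over TH) was positive for 56 of 56. Its median was 0.47 over the 56, with quartiles of 0.36 and 0.54, against 0.0064 over all tested genes, with quartiles of -0.22 and 0.21. The 56 genes together took 0.805%, 0.870% and 0.744% of the counts in the 3 THCaP libraries, against 0.509%, 0.604% and 0.594% in the 3 TH libraries. In bulk RNA, more cells in mitosis and more mitotic RNA per cell cannot be told apart.

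The test was edgeR's quasi-likelihood F test of the counts with 3 libraries a surface, and a gene was called where the p, adjusted by Benjamini-Hochberg, was under 0.05 over the 11480 genes tested. Of these, 1333 (11.6%) were called higher and 1376 (12.0%) lower on THCaP. Every THCaP library lay above every TH library for 53 of the 56 mitotic genes and for 2533 (22.1%) of all tested genes, the exceptions among the 56 being Bub1, Cenpa and Smc4. None of the 56 was lower with edgeR at an unadjusted p under 0.05, with DESeq2 or with limma-voom (0 in each). A stricter form of the test, which asks whether a gene rose by more than 1.2-fold, called 14 of the 56 higher, against 181 (1.58%) of all tested genes. These were Cdk1, Ccnb1, Plk1, Mybl2, Ube2c, Birc5, Cenpn, Nuf2, Spc24, Kif11, Kif15, Nusap1, Ncapd2 and Ncaph.

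How many of the 56 passed depended on which libraries were compared. Leaving out THCaP replicate 1 left 22 called, against 291 (2.51%) of all tested genes, and leaving out TH replicate 2 left 28, against 294 (2.54%) of all tested genes. It was 29 without TH replicate 3, against 294 (2.54%) of all tested genes. In every one of the 6 fits that leave out a library, 18 stayed called: Cdk1, Ccnb1, Ccna2, Plk1, Aurka, Ube2c, Incenp, Birc5, Cenpn, Nuf2, Kif11, Kif15, Nusap1, Racgap1, Ncapd2, Ncaph, Top2a and Mki67. The number of all tested genes that stayed called in every one of these fits was not counted, so these 18 have no background share. With counts scaled by library totals in place of TMM, 1904 (16.6%) of all tested genes were higher and 1063 lower on THCaP, with 48 of the 56 mitotic genes higher.

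**Figure D2:**
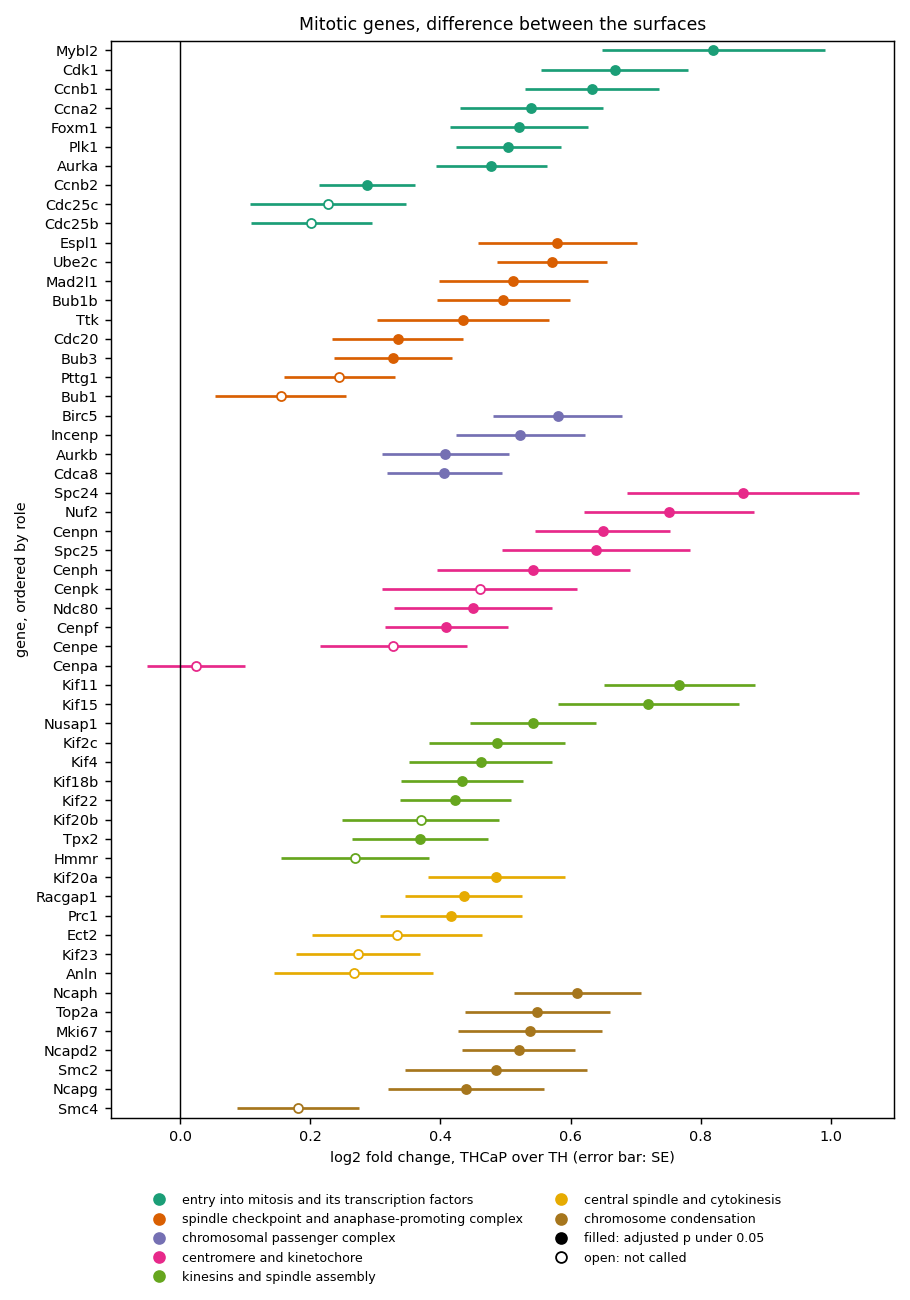
Log2 fold change, THCaP over TH, of each of the 56 mitotic genes (points) with its standard error (bars), grouped by role; filled points passed the adjusted p of 0.05 and open points did not. All 56 points lie right of 0, from 0.02 for Cenpa to 0.87 for Spc24.

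The 3 THCaP libraries differed among themselves, as did the 3 TH libraries. As the mean log2 CPM of the 56 genes relative to the mean of all 6 libraries, THCaP replicates 1, 2 and 3 stood at 0.226, 0.354 and 0.110, against -0.384, -0.152 and -0.152 in TH replicates 1, 2 and 3. All 3 THCaP libraries therefore lay above all 3 TH libraries on this measure. THCaP replicate 2 was the highest of the 6 libraries for 50 of the 56 genes, and TH replicate 1 the lowest for 52. THCaP replicate 3 was the lowest of the THCaP libraries for 48. These ranks were counted for the 56 only and not over all tested genes. The S phase list had another spread, at 0.340, 0.677 and -0.0311 in the THCaP libraries and -0.387, -0.314 and -0.285 in the TH libraries. Measured from the TH mean, THCaP replicate 3 stood at 58.2% of the height of THCaP replicate 2 for the mitotic genes and at 29.6% for the S phase list. The THCaP libraries also spread along the main axis of variation of all tested genes (60.5% of the variance). There THCaP replicates 1, 2 and 3 stood at -19.3, -35.9 and -5.17, and TH replicates 1, 2 and 3 at 16.3, 22.2 and 21.9.

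A fit with an offset for gene length in each library, added after the length trend of TH replicate 1 was seen, called 45 of the 56 higher, with a median log2 fold change of 0.47, against 1659 (14.5%) of all tested genes. Without TH replicate 1 altogether, 36 were called, against 1071 (9.25%) of all tested genes.

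**Figure D3:**
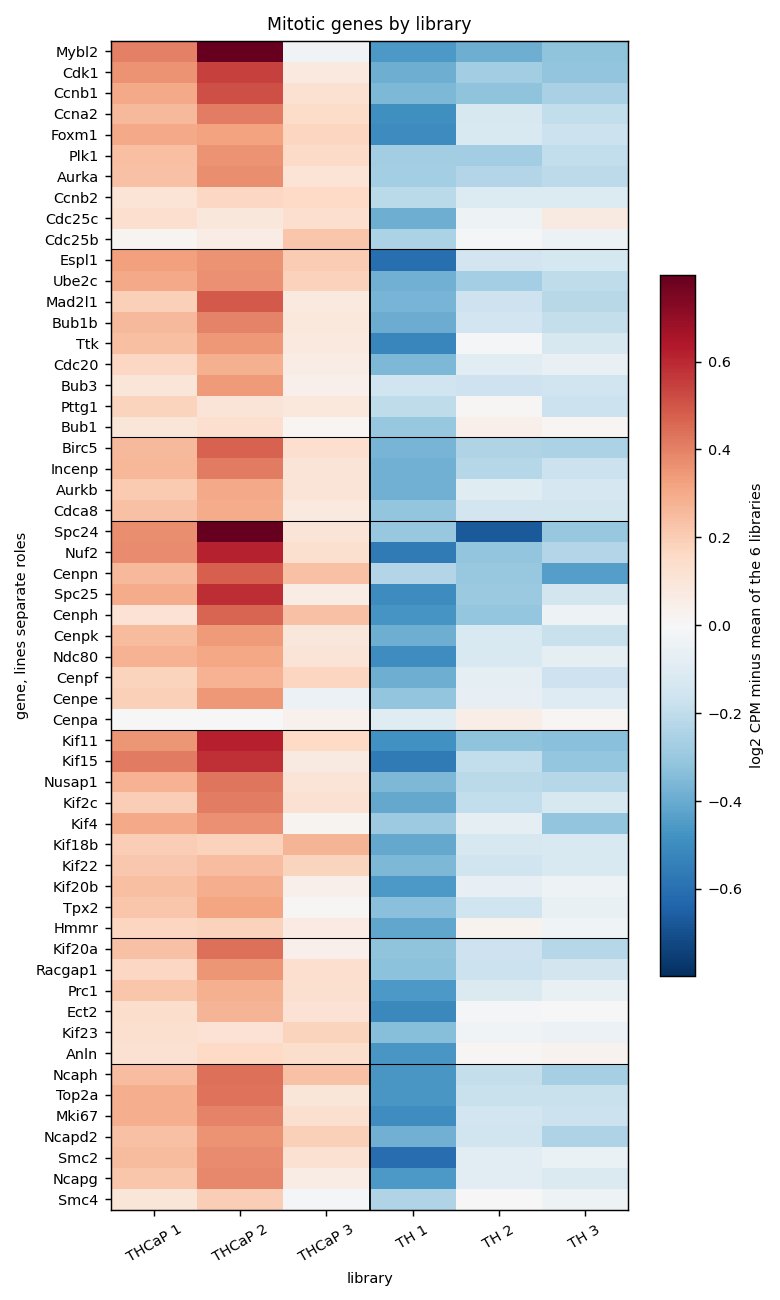
Log2 CPM of each mitotic gene (lines) in each library (columns, THCaP left of TH), minus its mean over the 6 libraries, with red above and blue below that mean. THCaP replicate 2 is the highest library for 50 genes and TH replicate 1 the lowest for 52.

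**Figure D4:**
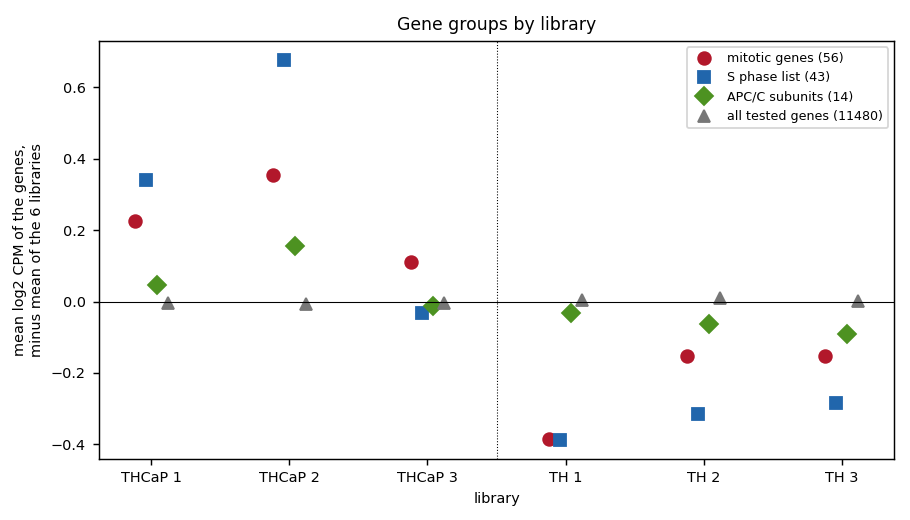
Mean log2 CPM of 4 sets of genes in each library, minus the mean of the 6 libraries, with THCaP libraries on the left. The 56 mitotic genes lie above 0 in all 3 THCaP libraries and below 0 in all 3 TH libraries, while the S phase list is at -0.0311 in THCaP replicate 3.

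Scaled by gene length as deposited FPKM (counts over gene length and library total), levels of the 56 genes on TH ran from 2.33 for Cenpk to 121 for Ccnb2. On TH the highest after Ccnb2 were Cenpa at 120, Ube2c at 105 and Top2a at 67.7 FPKM. On THCaP the order at the top was Ube2c at 162 ± 9.95, Ccnb2 at 153 ± 3.11 and Cenpa at 126 FPKM (SD, n = 3 each), and the first 2 of these overlapped within their SD. Cenph at 5.86, Kif4 at 6.90 and Cenpe at 7.60 FPKM followed Cenpk at the low end on TH.

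**Figure D5:**
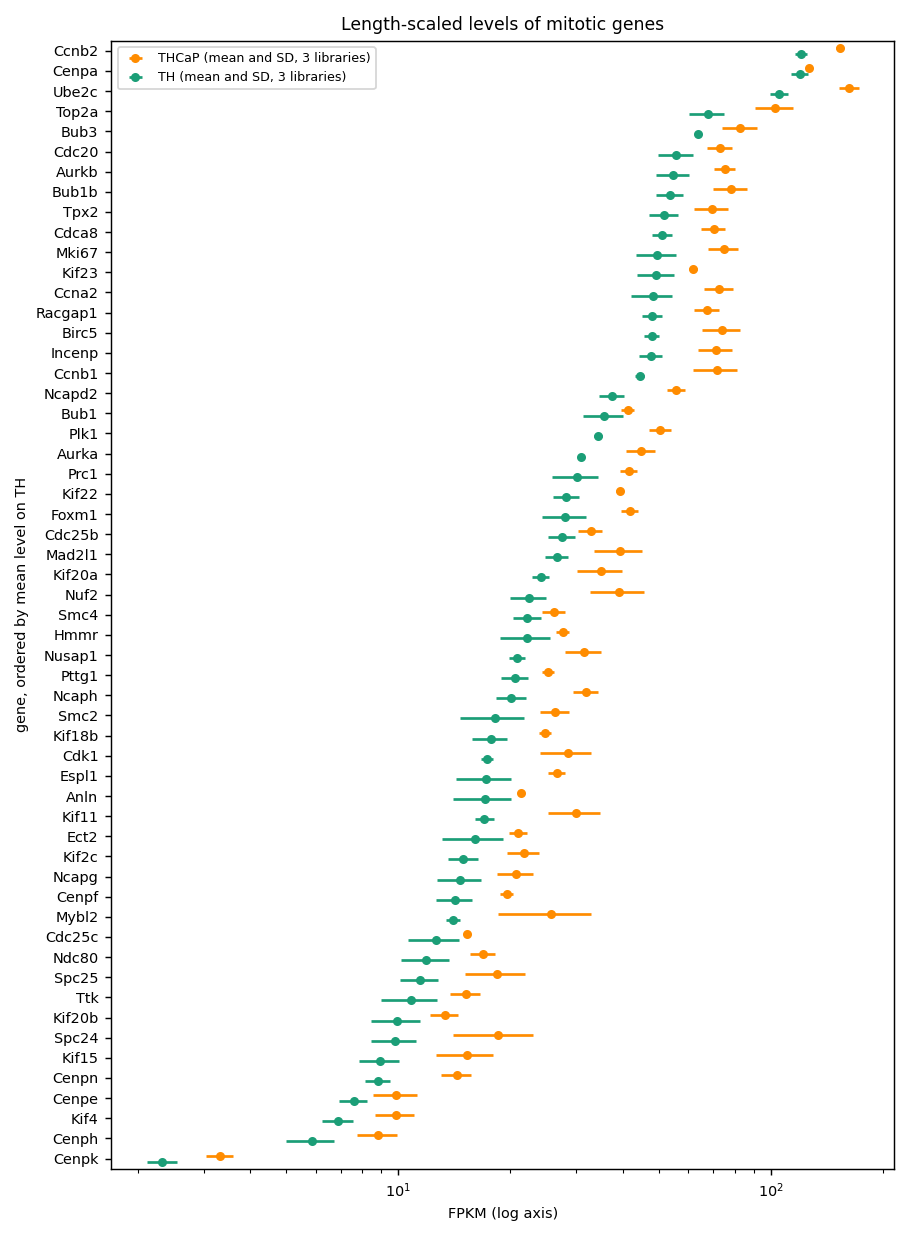
Deposited FPKM of each mitotic gene, as mean (points) and SD (bars) of 3 libraries, THCaP in orange and TH in green, on a log axis and ordered by the level on TH. Levels on TH run from 2.33 for Cenpk to 121 for Ccnb2.

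Of the 10 genes for entry into mitosis, 8 rose on THCaP and 2 did not pass, with a median log2 fold change of 0.51. Cdk1 (chr10:69335146-69352912), the kinase that drives entry, had 123, 140 and 101 CPM in the THCaP libraries and 73.3, 79.4 and 77.1 CPM in the TH libraries. The lowest THCaP library was thus well above the highest TH library. Cdk1 averaged 122 ± 19.4 CPM on THCaP and 76.6 ± 3.06 CPM on TH (SD, n = 3 each), a 1.59-fold difference (log2 0.67, SE 0.11, edgeR adjusted p = 0.00691). Its partner cyclins rose by different amounts. Ccnb1 (cyclin B1) averaged 163 ± 22.3 CPM on THCaP and 105 ± 3.66 CPM on TH (log2 0.63, adjusted p = 0.00599), and Ccna2, the cyclin of S and G2 phase, 241 ± 21.9 CPM on THCaP and 166 ± 21.2 CPM on TH (log2 0.54, adjusted p = 0.0112). Ccnb2 (cyclin B2, chr9:70407689-70421554) had 226, 235 and 234 CPM in the THCaP libraries and 181, 194 and 194 CPM in the TH libraries, a smaller difference with no overlap (log2 0.29, adjusted p = 0.0244). The Ccnb2 call was lost without THCaP replicate 1, TH replicate 2 or TH replicate 3 (adjusted p = 0.0931, 0.0789 and 0.0871 in that order).

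Mybl2, which encodes B-Myb (chr2:163054327-163084688), had the largest fold change among the entry genes. It stood at 102, 135 and 75.8 CPM in the THCaP libraries and at 56.3, 59.1 and 61.9 CPM in the TH libraries, so the THCaP libraries spread widely above a narrow TH range. The difference was 1.76-fold (log2 0.82, SE 0.17, adjusted p = 0.0122), and it missed the threshold without TH replicate 2 (adjusted p = 0.0518). Foxm1, the factor that acts with B-Myb on late cell cycle promoters, averaged 179 ± 9.94 CPM on THCaP and 125 ± 17.1 CPM on TH (log2 0.52, adjusted p = 0.0113, or 0.0523 without THCaP replicate 1). Among the kinases, Plk1, which promotes entry and spindle assembly, rose by 1.42-fold (log2 0.50, adjusted p = 0.0058), and Aurka, the centrosomal Aurora kinase, by 1.39-fold (log2 0.48, adjusted p = 0.00753).

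The genes that did not pass were the phosphatases that activate Cdk1. Cdc25b (chr2:131186436-131198511) had 94.6, 97.2 and 108.5 CPM in the THCaP libraries and 78.3, 92.7 and 90.2 CPM in the TH libraries, ranges that came close without overlap (log2 0.20, SE 0.09, adjusted p = 0.137). Cdc25c averaged 29.4 ± 0.467 CPM on THCaP and 25.1 ± 4.05 CPM on TH (log2 0.23, SE 0.12, adjusted p = 0.187).

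Of the 9 checkpoint and anaphase genes, 7 rose and 2 did not pass, with a median log2 fold change of 0.43. Bub1b, which encodes BubR1 of the mitotic checkpoint complex (chr2:118598202-118641592), was the most abundant in CPM. Its values were 285, 313 and 252 CPM in the THCaP libraries, against 181, 214 and 208 CPM in the TH libraries. The groups did not overlap (log2 0.50, SE 0.10, adjusted p = 0.0113), and the call was missed without THCaP replicate 1 (adjusted p = 0.0515). Bub1, the kinase that recruits the checkpoint proteins (chr2:127800197-127831859), had the smallest difference of the role. It stood at 177.5, 182 and 168.0 CPM in the THCaP libraries and 135, 171 and 167.9 CPM in the TH libraries, with overlap (log2 0.15, SE 0.10, adjusted p = 0.278).

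The largest fold change in the role was that of Espl1, which encodes separase, the protease that cuts cohesin (chr15:102296254-102324357). Espl1 had 181, 184 and 166 CPM in the THCaP libraries and 95.0, 130 and 131 CPM in the TH libraries (log2 0.58, SE 0.12, adjusted p = 0.0123). TH replicate 1 lay far below the other TH libraries there, and the call was missed without THCaP replicate 1 (adjusted p = 0.0512). Ube2c, the ubiquitin-conjugating enzyme of the anaphase-promoting complex, was tighter. It averaged 148 ± 9.39 CPM on THCaP and 99.9 ± 6.37 CPM on TH (log2 0.57, SE 0.08, adjusted p = 0.00454). Tnnc2, a gene on the opposite strand that shares 22.8% of the exonic bases of Ube2c, averaged 0.143 CPM over the 6 libraries.

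The other members of the checkpoint were called with less margin. Mad2l1, which encodes Mad2, the inhibitor of Cdc20, averaged 62.5 ± 9.34 CPM on THCaP and 43.8 ± 3.18 CPM on TH (log2 0.51, adjusted p = 0.0153, or 0.0559 without TH replicate 3). Bub3, a partner of Bub1 and BubR1 (log2 0.33, adjusted p = 0.0314), Ttk, the Mps1 kinase at the top of the checkpoint (log2 0.43, adjusted p = 0.041), and Cdc20, the activator of the anaphase-promoting complex (log2 0.33, adjusted p = 0.0404), each lost their call when any library but THCaP replicate 3 was left out. The adjusted p then ran from 0.0547 to 0.106 for Bub3, from 0.056 to 0.117 for Ttk and from 0.0705 to 0.122 for Cdc20. Pttg1, which encodes securin, the inhibitor of separase, averaged 63.7 ± 2.23 CPM on THCaP and 53.8 ± 4.38 CPM on TH and did not pass (log2 0.24, SE 0.09, adjusted p = 0.0627).

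All 4 subunits of the chromosomal passenger complex, which corrects faulty attachments at centromeres and later moves to the spindle midzone, rose on THCaP, with a median log2 fold change of 0.47. Incenp, the scaffold subunit (chr19:9872295-9899489), had 227, 251 and 203 CPM in the THCaP libraries and 145, 161 and 168 CPM in the TH libraries. Birc5, which encodes survivin (chr11:117849237-117855743), had 69.1, 80.0 and 63.3 CPM in the THCaP libraries and 44.8, 48.8 and 48.5 CPM in the TH libraries. In neither gene did the groups overlap. Birc5 had the largest fold change of the complex (log2 0.58, SE 0.10, adjusted p = 0.00717) and Incenp followed (log2 0.52, SE 0.10, adjusted p = 0.00885).

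The other 2 subunits had smaller differences. Cdca8, which encodes borealin (chr4:124918465-124936917), had 114, 120 and 103 CPM in the THCaP libraries and 78.3, 87.8 and 87.9 CPM in the TH libraries (log2 0.41, SE 0.09, adjusted p = 0.014). Its call was lost without THCaP replicate 1, TH replicate 2 or TH replicate 3 (adjusted p = 0.0668, 0.0514 and 0.0501 in that order). Aurkb, the kinase of the complex, averaged 151 ± 10.3 CPM on THCaP and 114 ± 11.9 CPM on TH (log2 0.41, adjusted p = 0.0189), with the call lost without THCaP replicate 1 (adjusted p = 0.0734) or TH replicate 3 (adjusted p = 0.0577).

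The 10 centromere and kinetochore genes held both the largest and the smallest difference among all 56. Here 7 rose and 3 did not pass, with a median log2 fold change of 0.50. The 4 subunits of the Ndc80 complex, the part of the kinetochore that grips microtubules, all rose. Spc24 (chr9:21755434-21760446) had 23.6, 31.8 and 19.6 CPM in the THCaP libraries and 14.8, 11.5 and 14.8 CPM in the TH libraries, without overlap but with THCaP replicate 2 far above the others. It differed by 1.82-fold (log2 0.87, SE 0.18, adjusted p = 0.0114, or 0.0533 without TH replicate 2). Nuf2 had 95.1, 112 and 79.7 CPM in the THCaP libraries and 49.4, 58.7 and 62.1 CPM in the TH libraries. The difference between the Nuf2 means exceeded the range within either surface (log2 0.75, SE 0.13, adjusted p = 0.00748).

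Spc25 averaged 35.8 ± 6.63 CPM on THCaP and 23.0 ± 2.82 CPM on TH (log2 0.64, adjusted p = 0.0158), with the call lost without THCaP replicate 1 (adjusted p = 0.0515) or TH replicate 2 (adjusted p = 0.0595). Ndc80 itself averaged 36.5 ± 2.78 CPM on THCaP and 26.7 ± 4.04 CPM on TH (log2 0.45, adjusted p = 0.0285). The Ndc80 call was lost without THCaP replicate 1 (adjusted p = 0.101), THCaP replicate 2 (0.0547), TH replicate 2 (0.0675) or TH replicate 3 (0.0546).

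Cenpa encodes the histone H3 variant that marks centromeres (chr5:30666877-30674837), and its level was nearly the same on both surfaces. It had 158, 159 and 162 CPM in the THCaP libraries and 148, 164 and 159 CPM in the TH libraries, with overlap (log2 0.02, SE 0.08, adjusted p = 0.839). Its estimate was -0.0202 without TH replicate 1. Hjurp, the chaperone that deposits the protein and a gene singled out here after its values were seen, had 491, 480.0 and 514 CPM in the THCaP libraries and 398, 501 and 505 CPM in the TH libraries (log2 0.08, SE 0.10, adjusted p = 0.58). The Cenpa promoter printed above holds a CHR and a pair of CCAAT boxes.

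The remaining centromere genes lay between these extremes. Cenpf, a large protein of the outer kinetochore (chr1:189640606-189688107), was the most abundant of the role in CPM, with 213.3, 229 and 212.8 CPM in the THCaP libraries and 144, 180.0 and 169 CPM in the TH libraries (log2 0.41, SE 0.09, adjusted p = 0.0173). The Cenpf call was lost without THCaP replicate 1 (adjusted p = 0.0628) or TH replicate 3 (adjusted p = 0.0623). Cenpn, which reads CENP-A nucleosomes, averaged 31.3 ± 2.98 CPM on THCaP and 19.9 ± 1.40 CPM on TH (log2 0.65, SE 0.10, adjusted p = 0.00576). Cenph, an inner kinetochore subunit, averaged 13.4 ± 1.69 CPM on THCaP and 9.23 ± 1.40 CPM on TH (log2 0.54, adjusted p = 0.0299), and lost its call without THCaP replicate 1 (0.0586), THCaP replicate 2 (0.0729), TH replicate 1 (0.0717) or TH replicate 2 (0.101). Its partner Cenpk, at 7.11 ± 0.615 CPM on THCaP and 5.17 ± 0.491 CPM on TH, did not pass (log2 0.46, adjusted p = 0.0507), nor did Cenpe, a kinesin that carries chromosomes to the metaphase plate, at 75.9 ± 10.2 CPM on THCaP and 60.5 ± 5.51 CPM on TH (log2 0.33, adjusted p = 0.0601). Without THCaP replicate 3, the lowest THCaP library, Cenpk and Cenpe passed (adjusted p = 0.0316 and 0.00761 in that order).

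Of the 10 kinesin and spindle assembly genes, 8 rose and 2 did not pass, with a median log2 fold change of 0.45. The motors that push the spindle poles apart led. Kif11, which encodes Eg5 (chr19:37376382-37421863), had 140, 168 and 122 CPM in the THCaP libraries and 78.0, 87.5 and 86.8 CPM in the TH libraries. It averaged 143 ± 23.2 CPM on THCaP and 84.1 ± 5.33 CPM on TH (SD, n = 3 each), a 1.70-fold difference that exceeded the range within either surface (log2 0.77, SE 0.12, adjusted p = 0.00467). Kif15, which can stand in for Eg5, averaged 72.4 ± 12.7 CPM on THCaP and 44.0 ± 5.57 CPM on TH (log2 0.72, SE 0.14, adjusted p = 0.00946).

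Tpx2, the activator of Aurora A on the spindle (chr2:152847964-152895321), was the most abundant of the role in CPM, with 215, 229 and 185 CPM in the THCaP libraries and 146, 165 and 177 CPM in the TH libraries. THCaP replicate 3 and TH replicate 3 were close there (log2 0.37, SE 0.10, adjusted p = 0.0332), and the Tpx2 call was lost when any library but THCaP replicate 3 was left out (adjusted p from 0.0638 to 0.118). Nusap1, which bundles microtubules near chromosomes, averaged 94.3 ± 10.6 CPM on THCaP and 64.7 ± 3.54 CPM on TH (log2 0.54, adjusted p = 0.00753). Hmmr, which localises Tpx2 (chr11:40701388-40733464), had 109, 109.6 and 101 CPM in the THCaP libraries and 72.5, 98.2 and 94.4 CPM in the TH libraries and did not pass (log2 0.27, SE 0.11, adjusted p = 0.111).

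The kinesins that act on chromosome arms or microtubule ends rose by similar amounts. The log2 fold change was 0.49 for Kif2c (MCAK, a microtubule depolymerase, adjusted p = 0.0136), 0.43 for Kif18b (a plus-end motor, adjusted p = 0.0139), 0.42 for Kif22 (a chromosome arm motor, adjusted p = 0.0108) and 0.46 for Kif4 (a chromosome arm and midzone motor, adjusted p = 0.0186). Leaving out THCaP replicate 1 gave an adjusted p of 0.0551 for Kif18b, 0.0535 for Kif22 and 0.0782 for Kif4. Leaving out TH replicate 2 gave 0.0514 for Kif2c, and the Kif4 call was also missed without TH replicate 1 (0.0504) or TH replicate 3 (0.0824). Kif20b, a kinesin of late mitosis, averaged 77.3 ± 6.87 CPM on THCaP and 59.8 ± 9.30 CPM on TH (log2 0.37, adjusted p = 0.0517, or 0.0156 without THCaP replicate 3).

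The central spindle and cytokinesis genes were the role with the lowest median, a log2 fold change of 0.37, and 3 of the 6 rose while 3 did not pass. Kif20a, which carries the passenger complex to the midzone (chr18:34624624-34633277), had 133, 154 and 116 CPM in the THCaP libraries and 90.6, 101 and 96.4 CPM in the TH libraries (log2 0.49, SE 0.11, adjusted p = 0.0141). Its call was lost without THCaP replicate 1 (adjusted p = 0.0545) or TH replicate 3 (adjusted p = 0.0569), and 29.3% of its exonic bases are shared with Cdc23 on the other strand. Racgap1, a subunit of centralspindlin, averaged 202 ± 16.6 CPM on THCaP and 149 ± 10.0 CPM on TH (log2 0.44, adjusted p = 0.0114). Kif23, the motor subunit of centralspindlin (chr9:61917277-61946810), had 209, 206 and 216 CPM in the THCaP libraries and 151, 187 and 184 CPM in the TH libraries, with no overlap, but it did not pass (log2 0.27, SE 0.09, adjusted p = 0.0615).

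Anln, which encodes anillin, a scaffold of the contractile ring (chr9:22331214-22389211), had 162, 166 and 164 CPM in the THCaP libraries and 108, 149 and 152 CPM in the TH libraries. TH replicate 1 stood well below the rest (log2 0.27, SE 0.12, adjusted p = 0.136). Ect2, the exchange factor that activates RhoA at the furrow, averaged 94.3 ± 5.66 CPM on THCaP and 74.9 ± 14.2 CPM on TH and did not pass (log2 0.33, SE 0.13, adjusted p = 0.0887). Prc1, which crosslinks midzone microtubules, rose (129 ± 7.09 CPM on THCaP, 97.1 ± 13.9 CPM on TH, log2 0.42, adjusted p = 0.0263), but not without THCaP replicate 1 (adjusted p = 0.0883) or TH replicate 2 (adjusted p = 0.0655).

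Of the 7 chromosome condensation genes, 6 rose and Smc4 did not pass, with a median log2 fold change of 0.52. Mki67, which encodes Ki-67, a coat protein of mitotic chromosomes and a common marker of cycling cells (chr7:135689784-135716450), was the most abundant of all 56 in CPM. It had 747, 804 and 668 CPM in the THCaP libraries and 434, 551 and 544 CPM in the TH libraries (log2 0.54, SE 0.11, adjusted p = 0.0114). Top2a, the topoisomerase that untangles sister chromatids, averaged 528 ± 61.5 CPM on THCaP and 361 ± 40.0 CPM on TH (log2 0.55, SE 0.11, adjusted p = 0.0112). For Mki67 and Top2a alike, the lowest THCaP library stood above the highest TH library.

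Within condensin I, the ring that compacts chromosomes, the subunits differed. Ncaph, the subunit that closes the ring (chr2:127103809-127133954), had 80.9, 92.3 and 79.9 CPM in the THCaP libraries and 49.5, 59.6 and 56.8 CPM in the TH libraries (log2 0.61, SE 0.10, adjusted p = 0.00564). Smc4, a core ATPase subunit shared with condensin II (chr3:69004738-69034623), had 180.4, 193 and 167 CPM in the THCaP libraries and 143, 169 and 164 CPM in the TH libraries, and the groups overlapped (log2 0.18, SE 0.09, adjusted p = 0.178). Smc2, its ATPase partner, averaged 146 ± 13.1 CPM on THCaP and 104 ± 20.8 CPM on TH (log2 0.49, adjusted p = 0.035) and lost its call without THCaP replicate 1 (0.0965), THCaP replicate 2 (0.0666), TH replicate 2 (0.0688) or TH replicate 3 (0.0563). The 2 subunits built of HEAT repeats also rose. Ncapd2 averaged 324 ± 19.4 CPM on THCaP and 226 ± 17.6 CPM on TH (log2 0.52, adjusted p = 0.00666), and Ncapg 75.0 ± 8.49 CPM on THCaP and 55.3 ± 7.57 CPM on TH (log2 0.44, adjusted p = 0.0296, or 0.0594 to 0.0873 when any library but THCaP replicate 3 was left out).

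Genes of the same pathway outside the 56 leaned the same way in most lists. Of all tested genes, 11.6% were called higher. Of 29 other tested kinetochore and centromere genes, 15 rose and 0 fell, with a median log2 fold change of 0.44. Cenpm, an inner kinetochore subunit, averaged 22.0 ± 1.56 CPM on THCaP and 12.4 ± 0.688 CPM on TH (log2 0.82, SE 0.10, adjusted p = 0.00302). Cenpi, another inner subunit, averaged 27.0 ± 3.58 CPM on THCaP and 15.9 ± 2.18 CPM on TH (log2 0.76, adjusted p = 0.00753). Ska1, of the complex that couples kinetochores to microtubule ends, rose by a log2 of 0.68 (adjusted p = 0.0119), but not without THCaP replicate 1 (0.0515) or TH replicate 2 (0.0566).

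Of 32 other spindle, kinesin and cytokinesis genes, 13 rose and 0 fell, with a median log2 fold change of 0.30. Those with the largest changes were Haus5, a subunit of augmin, which branches microtubules, at 28.3 CPM on THCaP and 16.7 CPM on TH (log2 0.76), Pimreg at 57.8 CPM on THCaP and 34.5 CPM on TH (log2 0.74) and the kinase gene Pbk at 64.5 CPM on THCaP and 40.9 CPM on TH (log2 0.66). The Pbk call was lost without TH replicate 1 (adjusted p = 0.0536) or TH replicate 2 (adjusted p = 0.0566). Of 23 other mitotic regulators, 11 rose and 0 fell, with a median of 0.34. Fbxo5, which encodes Emi1, an inhibitor of the anaphase-promoting complex, averaged 39.3 CPM on THCaP and 22.7 CPM on TH (log2 0.80, SE 0.11, adjusted p = 0.00343). Trip13, which remodels Mad2, rose by a log2 of 0.77 (adjusted p = 0.0166), but not without TH replicate 2 (0.066) or TH replicate 3 (0.0571), and Mad1l1, the partner of Mad2, by a log2 of 0.72 (adjusted p = 0.00889).

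The core subunits of the anaphase-promoting complex, the ubiquitin ligase that triggers anaphase, had smaller differences. Among all tested genes the share called higher was 11.6%, and this list was not tested against that share. Of 14 tested, 3 rose and 0 fell, with a median log2 fold change of 0.10. These were Anapc5 (log2 0.44, adjusted p = 0.0211), Anapc11 (log2 0.35, adjusted p = 0.0471) and Cdc23 (log2 0.28, adjusted p = 0.0278), the last of which shares exonic bases with Kif20a. Each was lost without THCaP replicate 1, TH replicate 2 or TH replicate 3, with adjusted p up to 0.0817 for Anapc5, 0.169 for Anapc11 and 0.122 for Cdc23. Anapc5 and Anapc11 were also lost without TH replicate 1 (0.0511 and 0.0608 in that order), and Anapc11 and Cdc23 without THCaP replicate 2 (0.137 and 0.0608 in that order). A CHR was found in 2 of 13 promoters of this list (15.4%), against 12 of 25 (48.0%) of the other kinetochore genes, 12 of 27 (44.4%) of the other spindle genes, 9 of 21 (42.9%) of the other regulators and 6 of 11 (54.5%) of the cohesin and condensin II genes. The CHR share was 16.8% over all tested genes and 19.4% in the S phase list, whose median log2 fold change was 0.71. Whether these shares bear on the fold changes was not tested.

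Of 15 cohesin and condensin II genes, 6 rose and 0 fell, with a median log2 fold change of 0.29. Ncapg2, a condensin II subunit, rose by a log2 of 0.69 (adjusted p = 0.0124), and Esco2, which acetylates cohesin, by 0.65 (adjusted p = 0.0103). Cdca5, which encodes sororin, the protector of cohesin, rose by 0.51 (adjusted p = 0.0175), but not without THCaP replicate 1 (0.0545), TH replicate 2 (0.0634) or TH replicate 3 (0.0765). Across the 5 lists outside the S phase list in which 0 genes fell, DESeq2 and limma-voom also called 0 lower, and at an unadjusted p under 0.05 edgeR gave 1 lower gene, Nipbl, which encodes the cohesin loader and is named after its values were seen (150.8 ± 12.0 CPM on THCaP, 182 ± 26.4 CPM on TH). In the S phase list 37 of 43 rose, 0 fell by edgeR, DESeq2 or limma-voom or at an unadjusted p under 0.05, and the median was 0.71.

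Of 12 tested inhibitors of the cell cycle, 2 rose and 3 fell, with a median log2 fold change of -0.22. Over all tested genes 11.6% were higher and 12.0% lower, and the share of this list was not tested against that. Btg1, an antiproliferative gene, averaged 569 ± 110 CPM on THCaP and 922 ± 56.7 CPM on TH (log2 -0.70, SE 0.13, adjusted p = 0.00835). Cdkn1a, which encodes p21, an inhibitor of cyclin-dependent kinases, had 144, 145 and 151 CPM in the THCaP libraries and 207, 199 and 193 CPM in the TH libraries, with no overlap (log2 -0.45, SE 0.07, adjusted p = 0.006). Ccng2, an atypical cyclin linked to cell cycle arrest, fell by 0.62 on the log2 scale (adjusted p = 0.0285), but not without THCaP replicate 1 (0.0785), TH replicate 2 (0.103) or TH replicate 3 (0.0999). The 2 that rose were Rbl1, which encodes p107, a pocket protein of the DREAM complex, at 74.2 ± 16.7 CPM on THCaP and 42.6 ± 1.84 CPM on TH (log2 0.80, adjusted p = 0.00753), and Cdkn2c, which encodes p18, at 56.2 ± 6.24 CPM on THCaP and 35.4 ± 1.04 CPM on TH (log2 0.67, adjusted p = 0.00431).

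Promoters of called and uncalled genes among the 56 held a CHR about equally often, in 28 of 36 (77.8%) called and 8 of 11 (72.7%) not called. No CHR, CCAAT box or E2F match as spelled here was in the 300-base windows of 7 genes, of which Nuf2, Mybl2, Ncaph, Birc5, Nusap1 and Mad2l1 rose and Pttg1 did not pass.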

How the data were processed

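The authors deposited raw counts per gene symbol and FPKM for 3 THCaP and 3 TH libraries, grouped by their labels. The submitters' processing notes list HTSeq, HISAT2 and fastp, and build mm10. For versions, annotation and strand setting the sources used here give nothing. The deposited FPKM follow from count, gene length and library total: the lengths they imply were whole within 0.01 bases for 100% of 11079 genes that had 10 or more counts in all libraries. They served for levels between genes, gene lengths and some alternatives.

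Counts were tested with edgeR 4.0.16 in R 4.3.3: filterByExpr (minimum count 10, minimum total 15), TMM, robust quasi-likelihood F test, THCaP against TH over the 6 libraries with no covariate, and Benjamini-Hochberg adjustment over the 11480 genes tested. The SE was taken as the size of the log2 fold change over the square root of F. Alternatives used DESeq2 1.42.0, limma 3.58.1, other scalings and filters, FPKM on a log2 scale, a fold tested against 1.2, each library left out, and a replicate block. A surface's libraries differed by more than counting noise (chi-square per degree of freedom from 3.84 to 48.4).

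The 56 genes and all comparison lists were chosen with earlier results of these data known. Every one of the 56 is named. Values per library are given in each role for the gene with the highest mean CPM and those with the largest and smallest fold change, and for a few others. Of a comparison list, up to 3 called genes with the largest change and a mean of at least 5 CPM are named, and any called against the list's direction. Gene positions (GRCm38, 1-based) and promoters (GRCm38.p6) are those of RefSeq, and overlaps of exons those of GENCODE vM21. Motifs were searched on both strands of 300 bases. RefSeq promoters for Spc24, Aurkb, Incenp, Cdc25c, Ccna2, Smc4, Tpx2, Kif20a and Foxm1 were not used here. Promoters on chromosome 18, where Cdc25c and Kif20a lie, were left out of the search for all genes.

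Strand is not stated, so reads of overlapping genes cannot be told apart: 17 of the 56 share exonic bases with another gene in GENCODE, 7 of them over 10% of their own (Ccna2, Cdc25c, Ube2c, Kif4, Kif20a, Prc1 and Ncapg). Ccnb1, Ccnb2, Kif22 and Kif4 have named pseudogenes, and their counts are uncertain for that reason.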

Additional observations from a re-analysis of the deposited data

How the results depend on the processing

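The log2 fold change stayed positive in every alternative for 55 of the 56 mitotic genes, the exception being Cenpa, at -0.0202 without TH replicate 1 (-0.0202 to 0.0548 over the 6 fits that leave out a library) and -0.0081 with the gene-length offset. The number of the 56 called higher was 48 with DESeq2, 43 with limma-voom, 48 with library totals, 45 with no filter on low counts and 32 with log2(FPKM + 1) and no filter, and 0 were lower in any of these. Over all genes, 1689 of 15233 were higher with DESeq2 and 1261 of 11480 with limma-voom. With library totals 1904 of 11480 were higher, and with no filter on low counts 1423 of 15233. Of the 56, 14 were higher when the fold was tested against 1.2, with 181 higher and 351 lower over all genes. That test gave 25 higher and 1 lower over the comparison lists (86 higher and 3 lower with edgeR as reported). With log2(FPKM + 1) and no filter, 729 genes were higher and 530 lower, and 43 of the lists higher; the cause was not tested. List genes called lower were 5 with DESeq2, 5 with no filter and 6 with a replicate block. Leaving out each library gave 22 to 46 of the 56 higher, 291 to 2145 of all genes higher and 465 to 2020 lower, and 34 to 104 list genes higher and 2 to 6 lower. Libraries with the same number did not deviate together (correlations of -0.020, -0.072 and 0.060), so the numbers were not taken to pair libraries. The fit with a replicate block called 46 of the 56 higher, and over all genes 1424 higher and 1457 lower. The length offset gained Cenpe, Kif20b and Anln and lost Cdc20 (adjusted p = 0.0653).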
